A study of Mus musculus with 18 samples.

Results

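The genes examined here are 7 markers of Schwann cells and of the myelin sheath they make: Mbp, Pmp22, Prx, Mag, S100b, Sox10 and Egr2. They were chosen by name, with earlier results of these data known. Each was read from the single row of the array table that the platform's annotation assigned to that symbol alone. A row was found for 6 of the 7 genes, among 20259 genes in all, and Prx was not analysed here. The arrays held RNA from the quadriceps muscle of male mice on a C57BL/6 background at 10 weeks of age, with 3 arrays in each of 6 groups, each array described as a biological replicate. The groups were wild-type (wt) mice, wt mice injected with ACVR2B/Fc, Dysf-/- mice, Dysf-/- mice injected with ACVR2B/Fc, mice with the F66 transgene, and F66;Dysf-/- mice with both. Dysf-/- mice lack dysferlin, a muscle protein of membrane repair, and carry no other listed allele. F66 mice carry a follistatin (Fst) transgene driven by a skeletal muscle myosin light chain promoter. They come from 1 transgenic line with the insertion on the Y chromosome, and the F66 and F66;Dysf-/- males came from crosses in which both parents carried 1 Dysf mutant allele. ACVR2B/Fc, the extracellular part of an activin type IIB receptor joined to a mouse IgG2a Fc domain, was given as 4 weekly intraperitoneal injections of 10 mg/kg (200 µg each) from 6 weeks of age. Both the transgene and the soluble receptor block myostatin and related ligands and enlarge muscle. The other 4 groups are labelled as having received no treatment, and whether any of them received vehicle was not stated for the arrays.

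Muscle is crossed by nerve branches, and each motor axon in them is wrapped by Schwann cells. Myelinating Schwann cells wind their membrane around a length of axon and pack it with a small set of abundant proteins, while non-myelinating Schwann cells hold bundles of thin axons and terminal Schwann cells cap the neuromuscular junction. The transcription factor Sox10 is needed throughout the lineage and, together with Egr2 (also called Krox20), switches on the myelin genes. Mbp, Pmp22 and Mag encode proteins of the sheath itself, and S100b encodes a calcium-binding protein used as a general Schwann cell marker. Several of these genes are also used elsewhere: Egr2 is an immediate early gene in many cell types and is expressed in macrophages, and Pmp22 is expressed in fibroblasts and other cells outside nerve. The RNA came from whole muscle, so fewer Schwann cells and less RNA of a gene per Schwann cell cannot be told apart.

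RefSeq promoter windows of the GRCm38.p6 assembly were examined for 5 of the 7 genes, each running from 250 bases before to 50 bases after a start. Windows of Mbp were not examined, and Sox10 had none in the set used. Those of Egr2, Pmp22 and Mag are shown because Egr2 and Pmp22 were the members that rose in F66;Dysf-/- muscle and because windows of Mag held the searched SOX letters. Capitals mark the matches. The searches, on both strands, were for ACAAAG or ACAATG (SOX family), for GCGTGGG or GCGGGGG (EGR family) and for the CArG box, the element bound by serum response factor, which was added after the Egr2 windows had been seen. The searched SOX and EGR letters do not contain each other. Among 32851 windows of 300 bases, 28.6% held the SOX letters, 14.7% the EGR letters and 1.63% a CArG box.
Egr2, the third of 5 start sites, chr10:67537619-67537918, plus strand, CArG box in capitals: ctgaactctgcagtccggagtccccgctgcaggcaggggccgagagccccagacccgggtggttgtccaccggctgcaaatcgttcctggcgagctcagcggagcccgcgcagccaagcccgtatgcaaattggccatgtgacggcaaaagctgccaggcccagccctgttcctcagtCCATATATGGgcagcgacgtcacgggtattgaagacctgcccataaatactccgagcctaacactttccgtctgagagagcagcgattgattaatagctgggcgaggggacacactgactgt
Pmp22, the first of 4 start sites, chr11:63128732-63129031, plus strand, no match: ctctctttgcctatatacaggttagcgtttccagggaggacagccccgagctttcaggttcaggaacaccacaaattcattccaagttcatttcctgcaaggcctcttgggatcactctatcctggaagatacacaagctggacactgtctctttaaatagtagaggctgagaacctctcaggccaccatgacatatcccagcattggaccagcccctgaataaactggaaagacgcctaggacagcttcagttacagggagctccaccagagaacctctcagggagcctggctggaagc
Pmp22, the fourth of 4 start sites, chr11:63132553-63132852, plus strand, no match: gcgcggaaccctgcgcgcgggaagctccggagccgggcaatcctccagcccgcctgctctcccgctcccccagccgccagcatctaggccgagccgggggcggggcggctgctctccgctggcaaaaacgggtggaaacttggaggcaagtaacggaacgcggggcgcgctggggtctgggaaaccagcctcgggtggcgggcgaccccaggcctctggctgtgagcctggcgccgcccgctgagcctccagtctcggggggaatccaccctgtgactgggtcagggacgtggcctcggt
Mag, the second of 3 start sites, chr7:30914814-30915113, minus strand, SOX letters in capitals: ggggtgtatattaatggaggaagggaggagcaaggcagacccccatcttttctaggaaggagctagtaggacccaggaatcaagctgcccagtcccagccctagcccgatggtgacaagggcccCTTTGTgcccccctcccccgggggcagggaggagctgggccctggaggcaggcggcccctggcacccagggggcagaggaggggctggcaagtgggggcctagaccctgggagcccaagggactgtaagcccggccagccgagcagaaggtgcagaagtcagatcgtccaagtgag
A CArG box stood in 4 of the 5 Egr2 windows, 3 of which overlap, and the other one held the EGR letters. The second and the third Mag windows, which overlap, held the same SOX match, and none of the 4 Pmp22 windows held any of the 3 motifs. The start sites of Pmp22 serve alternative first exons, and the single Pmp22 row of the array does not separate them. A match is a description of the letters in the window and was not linked to binding.

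The deposited values are log2 intensities, so that a difference of 1 is a doubling. Dysf values ran from 6.76 to 7.10 in the 9 arrays of Dysf-/- genotype and from 8.48 to 8.91 in the other 9, and Fst values from 5.92 to 6.38 in the 6 arrays carrying the transgene and from 5.10 to 5.85 elsewhere, so both alleles stood where the labels put them. Muscle fibre transcripts were high on every array, with Ckm between 11.20 and 11.59 and Acta1 between 12.16 and 12.54. No pair of arrays held identical values, the lowest correlation between any pair was 0.954, and array medians ran from 5.27 to 5.45. The S100b row had a mean of 5.32, below the median of all rows at 5.35, and the other 5 members lay above it.

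Mbp, which encodes the basic protein that holds the inner faces of compact myelin together, was lower in both groups that carry the Fst transgene. Its log2 values were 6.84, 6.93 and 6.99 in wt muscle and 6.48, 6.46 and 6.49 in F66 muscle. They were 6.80, 6.83 and 6.89 in Dysf-/- muscle and 6.57, 6.55 and 6.41 in F66;Dysf-/- muscle. All arrays with the transgene lay below all arrays of the corresponding group without it. F66 minus wt was -0.45 (SE 0.072, adjusted p = 0.000584, limma), a fold of 0.73, and F66;Dysf-/- minus Dysf-/- was -0.33 (SE 0.072, adjusted p = 0.00242), a fold of 0.80. The ACVR2B/Fc-injected mice had 6.71, 6.92 and 6.87 in the wt background and 6.55, 6.79 and 6.65 in the Dysf-/- background. In order of group mean, wt (6.92) was followed by Dysf-/- (6.84), ACVR2B/Fc-injected wt (6.83), ACVR2B/Fc-injected Dysf-/- (6.66), F66;Dysf-/- (6.51) and F66 (6.48), and each group overlapped its neighbours in that order.

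Pmp22 encodes a tetraspan protein of compact myelin whose gene dosage matters for peripheral nerve. It was highest in F66;Dysf-/- muscle, at 9.93, 9.79 and 9.75. The other groups were at 9.43, 9.40 and 9.62 in Dysf-/-, 9.40, 9.69 and 9.56 in ACVR2B/Fc-injected Dysf-/-, and 9.54, 9.71 and 9.59 in wt muscle. The F66;Dysf-/- arrays lay above all 15 arrays of the other groups. F66;Dysf-/- minus Dysf-/- was 0.34 (SE 0.091, adjusted p = 0.00914), a fold of 1.27. F66 muscle, at 9.58, 9.64 and 9.50, differed from wt by -0.04 (95% interval -0.24 to 0.15, adjusted p = 0.804), and this small difference turned to 0.02 when arrays were centred on their medians. ACVR2B/Fc-injected wt muscle had the lowest mean, 9.38, from 9.28, 9.55 and 9.31. Apart from F66;Dysf-/-, neighbouring groups in the order of means overlapped. The Pmp22 call between F66;Dysf-/- and Dysf-/- was lost with the methods' t-test (adjusted p = 0.0603) and when all rows of the table were tested (adjusted p = 0.0839).

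Mag encodes a cell adhesion protein of the membrane next to the axon. It was at 5.45, 5.73 and 5.75 in wt muscle and at 5.38, 5.50 and 5.32 in F66 muscle, and these groups overlapped. The difference was -0.24 (SE 0.099, 95% interval -0.45 to -0.03, adjusted p = 0.132). Without wt replicate 1 it was -0.33 with an adjusted p of 0.0433. Values were 5.36, 5.62 and 5.57 in Dysf-/- muscle against 5.57, 5.36 and 5.33 in F66;Dysf-/- muscle, which also overlapped, with a difference of -0.10 (95% interval -0.31 to 0.11, adjusted p = 0.465). The ACVR2B/Fc-injected mice had 5.53, 5.72 and 5.51 in the wt background and 5.62, 5.60 and 5.79 in the Dysf-/- background. F66 and F66;Dysf-/- had the lowest means, 5.40 and 5.42, and neighbouring groups overlapped throughout the order.

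S100b was at 5.70, 5.13 and 5.62 in wt muscle, so that wt replicate 2 lay far below the other 2. F66 muscle was at 5.31, 5.08 and 5.34, Dysf-/- muscle at 5.45, 5.40 and 5.28, and F66;Dysf-/- muscle at 5.09, 5.12 and 5.30. The transgenic groups overlapped their counterparts. F66 minus wt was -0.24 (SE 0.12, adjusted p = 0.227), and -0.42 (adjusted p = 0.0117) without wt replicate 2. F66;Dysf-/- minus Dysf-/- was -0.21 (SE 0.12, adjusted p = 0.208). The ACVR2B/Fc-injected mice were at 5.41, 5.33 and 5.21 in the wt background and at 5.34, 5.21 and 5.42 in the Dysf-/- background. Group means ran from 5.17 in F66;Dysf-/- to 5.48 in wt muscle, and neighbours overlapped throughout.

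Sox10, the lineage transcription factor, was lowest in F66;Dysf-/- muscle. Its values there were 6.92, 6.84 and 6.96, against 7.31, 7.34 and 7.31 in Dysf-/- muscle and 7.07, 7.13 and 7.19 in F66 muscle. The F66;Dysf-/- arrays lay below all other 15 arrays. F66;Dysf-/- minus Dysf-/- was -0.41 (SE 0.067, adjusted p = 0.000191), a fold of 0.75. In wt muscle Sox10 was at 7.23, 7.38 and 7.18, which overlapped F66 by a small margin, and F66 minus wt was -0.13 (95% interval -0.28 to 0.01, adjusted p = 0.213). The ACVR2B/Fc-injected mice were at 7.32, 7.47 and 7.29 in the wt background and 7.25, 7.35 and 7.18 in the Dysf-/- background. Group means fell in the order ACVR2B/Fc-injected wt (7.36), Dysf-/- (7.32), wt (7.26), ACVR2B/Fc-injected Dysf-/- (7.26), then F66 (7.13) and last F66;Dysf-/- (6.91), and the step from F66 to F66;Dysf-/- was the only one without overlap.

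Egr2, the partner of Sox10 in myelin gene activation, was higher in F66;Dysf-/- muscle. It was at 7.55, 7.39 and 7.50 in F66;Dysf-/- muscle and at 6.67, 6.59 and 6.58 in Dysf-/- muscle, with no overlap, a difference of 0.87 (SE 0.19, adjusted p = 0.0026) and a fold of 1.82. F66 muscle was at 6.38, 6.76 and 7.54, so that its arrays spanned nearly the whole range of the 18 and replicate 3 lay among the F66;Dysf-/- arrays. In wt muscle the values were 6.72, 6.79 and 6.70. F66 minus wt was 0.15 (SE 0.19, adjusted p = 0.648), and -0.17 without F66 replicate 3. The SE of every Egr2 difference pools the spread of all 6 groups. The SD was 0.59 in F66 muscle and 0.0465 to 0.163 in the other groups. The ACVR2B/Fc-injected mice were at 6.41, 6.69 and 6.47 in the wt background and at 6.76, 6.68 and 6.998 in the Dysf-/- background. In order of group mean, F66;Dysf-/- (7.48) was followed by F66 (6.89), ACVR2B/Fc-injected Dysf-/- (6.82), wt (6.74), Dysf-/- (6.61) and ACVR2B/Fc-injected wt (6.52), and only wt and Dysf-/- were neighbours without overlap.

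**Figure D1:**
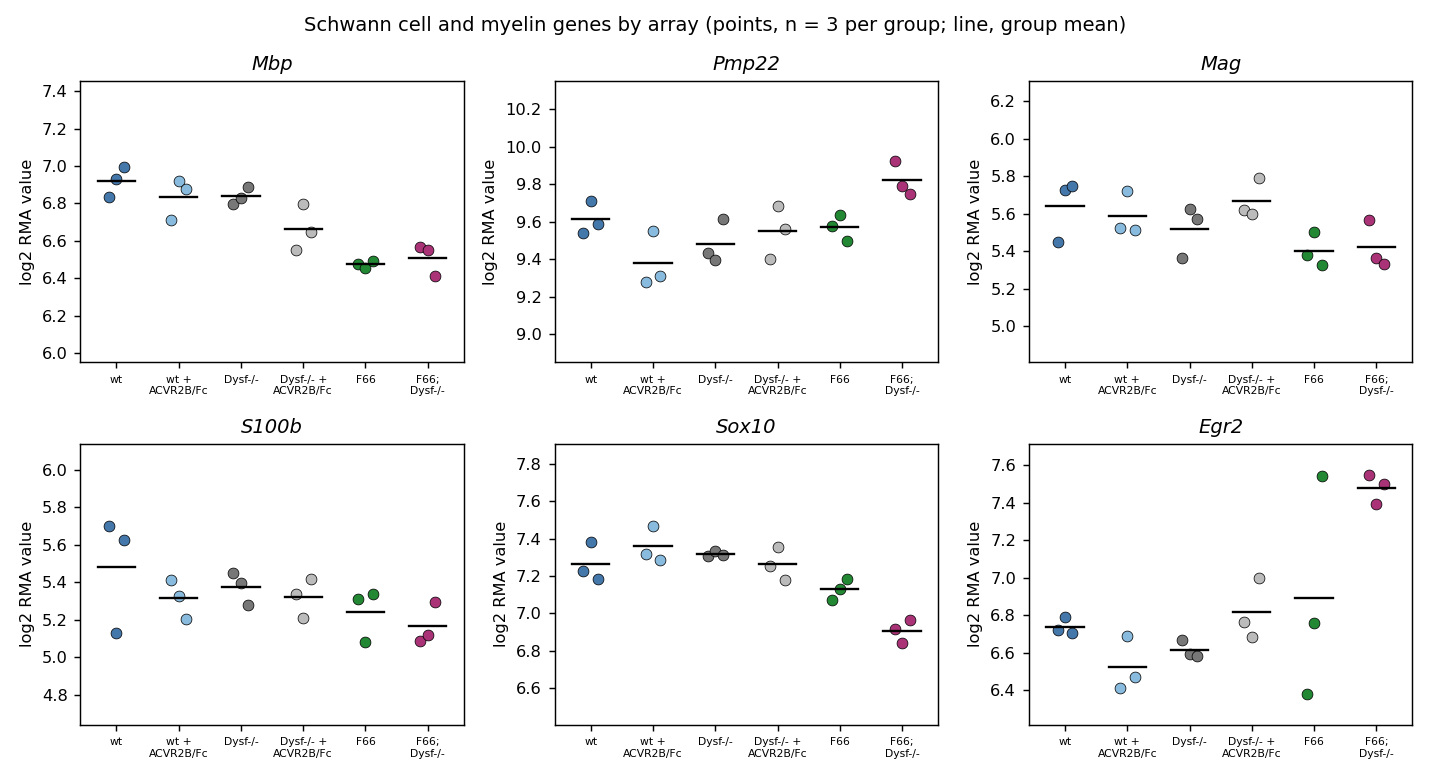
Log2 array values (vertical axes, all spanning the same height) of the 6 measured genes in the 6 groups (horizontal axes), with 1 point per array (n = 3 per group) and a line at the group mean. Mbp is low in F66 and F66;Dysf-/-, Pmp22 and Egr2 are highest and Sox10 lowest in F66;Dysf-/-, and the 3 F66 values of Egr2 run from 6.38 to 7.54.

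The F66 against wt comparison asked what the Fst transgene does in muscle with dysferlin. Of the 6 members, 1 was lower (Mbp) and 0 were higher at an adjusted p under 0.05, where 5.5% of all genes were called lower and 8.11% higher. The members' median difference was -0.19, beside -0.03 over all genes tested, and 5 of the 6 differences were negative. With arrays centred on their medians, these median differences were -0.12 and 0.03. Lists whose mean lay below the median of all rows also had negative medians in F66, such as T cell (-0.15) and melanocyte markers (-0.17). Only Mbp had arrays wholly below those of wt, as did 15.8% of all genes. Of all called genes 59.6% were higher, and 79.3% once arrays were centred on their medians. Leaving out wt replicate 1 or wt replicate 2 raised the count of called members to 2.

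The same transgene in the Dysf-/- background gave 4 called members of 6, with Pmp22 and Egr2 higher and Mbp and Sox10 lower. Among all genes 15.2% were called higher and 18.4% lower, 33.6% in all. The median of the members was -0.15, beside -0.09 over all genes. With centred arrays these medians were -0.06 and 0.003. Pmp22 and Egr2 had arrays wholly above those of Dysf-/- mice, as did 19.7% of all genes, and Mbp and Sox10 wholly below, as did 31.1%. Of all called genes 45.2% were higher, and 70.3% with centred arrays, and the 4 calls kept their directions with either scaling.

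Whether the transgene acted differently in the 2 backgrounds was tested as an interaction. It was past the threshold for 0 of 6 members in limma, against 16.5% of all genes, while 3 of 6 had an unadjusted p under 0.05, against 29.1%. The difference of differences was 0.38 for Pmp22 (SE 0.13, adjusted p = 0.055), -0.28 for Sox10 (SE 0.094, adjusted p = 0.058) and 0.71 for Egr2 (SE 0.27, adjusted p = 0.0907). For Mbp it was 0.12 (95% interval -0.10 to 0.34, adjusted p = 0.492), so the lower Mbp values in the 2 backgrounds were not shown to differ. The Pmp22 interaction passed the threshold without Dysf replicate 3 (adjusted p = 0.0326), that of Sox10 without wt replicate 2 (adjusted p = 0.0233), and that of Egr2 without F66 replicate 3 (1.04, adjusted p = 0.000441). With all arrays kept, the Pmp22 interaction also passed with the compared groups alone (adjusted p = 0.0363), with centred arrays (0.025), without genes below the median (0.041) and with a trended robust fit (0.0464), and that of Sox10 with the last 2 of these (0.0441 and 0.0477). Set directly against F66, F66;Dysf-/- muscle had 3 called members of 6, beside 34.7% of all genes. Pmp22 was higher by 0.25 (adjusted p = 0.0454), Egr2 was higher by 0.59 (adjusted p = 0.0276) with overlapping arrays, and Sox10 differed by -0.22 (adjusted p = 0.0173). Each removal of 1 of these 6 arrays left 1 called member. With quantile normalization again, Pmp22 in F66;Dysf-/- against F66 muscle differed by 0.15 (limma, adjusted p = 0.365) and was not called.

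ACVR2B/Fc, the other means of blocking the pathway, gave no called member in either background. In wt mice 0 of 6 were called in limma, beside 0.0296% of all genes, and 1 had an unadjusted p under 0.05 (Pmp22, -0.24, adjusted p = 0.533), beside 7.61%. Only Egr2 had arrays wholly below those of wt, as did 5.93% of all genes. In Dysf-/- mice 0 of 6 were called, beside 0.0247% of all genes, and 1 had an unadjusted p under 0.05 (Mbp, -0.17, adjusted p = 0.223), beside 18.8%. Here Egr2 lay wholly above, as did 14.2% of all genes, and Mbp wholly below, as did 8.3%. The effect of ACVR2B/Fc differed between backgrounds for 0 of 6 members in limma, beside 0.00494% of all genes, and 1 (Pmp22) had an unadjusted p under 0.05, beside 7.75%. For Mbp the 95% intervals were -0.24 to 0.07 in wt mice and -0.33 to -0.02 in Dysf-/- mice. The transgene's differences were -0.45 in wt mice, outside the first interval, and -0.33 in Dysf-/- mice, at the edge of the second. Set directly against ACVR2B/Fc-injected Dysf-/- muscle, F66;Dysf-/- muscle differed in Mbp by -0.15 (adjusted p = 0.0936), which was not called. Without ACVR2B/Fc-injected Dysf-/- replicate 1 that difference was -0.21 and passed the threshold (limma, adjusted p = 0.0379). The loss of dysferlin alone also gave 0 of 6 called members in limma, beside 0.489% of all genes, with 0 of 6 at an unadjusted p under 0.05, beside 9.84%. Egr2 lay wholly below wt, as did 8.27% of all genes. The methods' t-test likewise called 0 members in these 3 comparisons.

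The 2 forms of inhibition were also compared directly. F66 against ACVR2B/Fc-injected wt muscle had 2 called members of 6, beside 14.4% of all genes, with Mbp at -0.36 (adjusted p = 0.00342) and Sox10 at -0.23 (adjusted p = 0.0331). The Sox10 call was lost without replicate 2 of the ACVR2B/Fc-injected wt mice (adjusted p = 0.15), without F66 replicate 1 (adjusted p = 0.106) and without F66 replicate 2 (adjusted p = 0.082). F66;Dysf-/- against ACVR2B/Fc-injected Dysf-/- muscle had 3, beside 44.4%, with Sox10 at -0.35 (adjusted p = 0.000745), Pmp22 at 0.27 (adjusted p = 0.0252) and Egr2 at 0.67 (adjusted p = 0.0124). The Pmp22 call was lost without ACVR2B/Fc-injected Dysf-/- replicate 1 (adjusted p = 0.106), without its replicate 3 (0.0507) and without F66;Dysf-/- replicate 1 (0.106). It was also lost with quantile normalization again (difference 0.14, adjusted p = 0.354), with the methods' t-test (0.11) and with all rows (0.137). In this last comparison the median over all genes was -0.12, and 0.02 with centred arrays. These comparisons use the same F66 and F66;Dysf-/- arrays as those above. Over the 6 groups together, limma's F test called 4 of 6 members (Mbp, Sox10, Egr2 and Pmp22), where it called 49.2% of all genes. With quantile normalization again the F test did not call Pmp22 (adjusted p = 0.12).

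**Figure D2:**
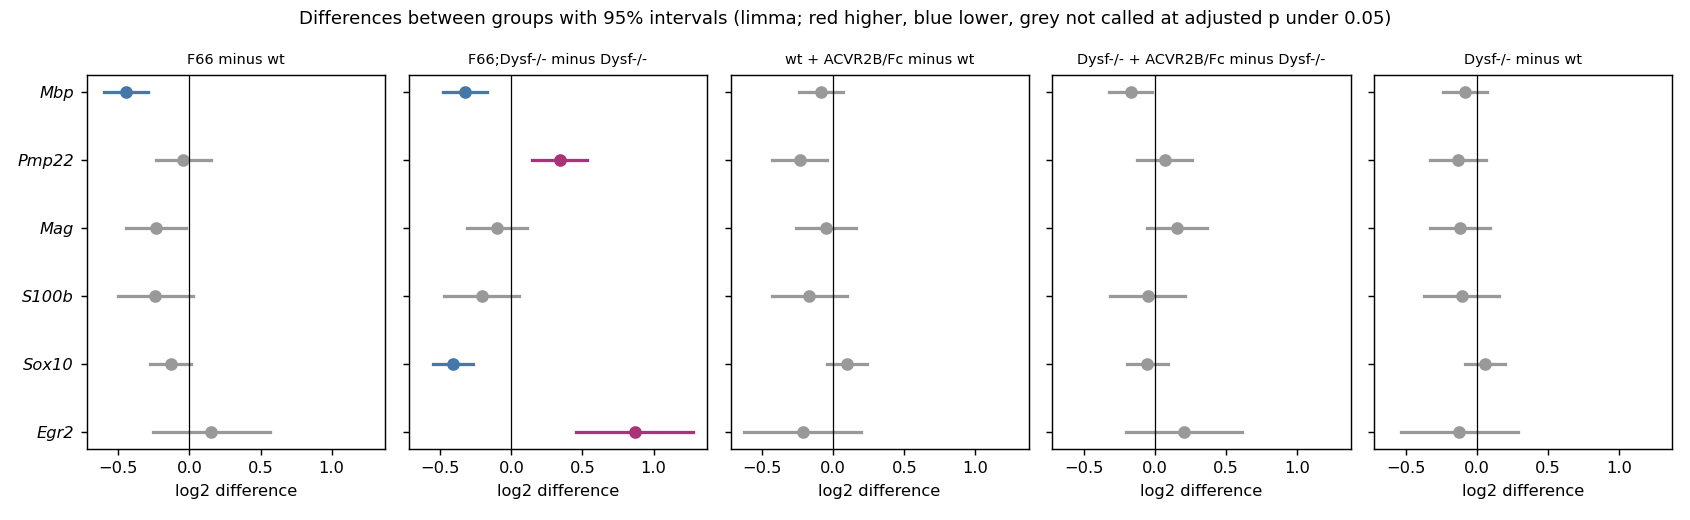
Log2 differences (horizontal axes) of the 6 genes (vertical axis) in 5 comparisons, with 95% intervals from limma. Red points were called higher and blue points lower at an adjusted p under 0.05, and grey points were not called. Called points appear only in the 2 panels of the Fst transgene.

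The members did not vary as 1 block over the 18 arrays. Pearson's r was 0.70 between Mbp and Sox10 and 0.58 between Mbp and Mag, but -0.54 between Mbp and Egr2, -0.67 between Sox10 and Egr2 and -0.60 between Sox10 and Pmp22, while Pmp22 and Egr2 had 0.63. After each group's mean was taken out, r was 0.22 for Mbp and Sox10, 0.72 for Mbp and Pmp22 and 0.34 for Sox10 and Egr2. The points are arrays that share their group and their scaling, and these values are descriptions.

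Other genes of the peripheral myelin sheath gave a wider view of Mbp. Of 15 listed genes 12 were measured, and in F66 muscle 6 were lower and 1 was higher than in wt, with a median of -0.24. Among all genes 5.5% were called lower and 8.11% higher. In F66;Dysf-/- against Dysf-/- muscle 6 listed genes were lower and 2 higher, with a median of -0.19, beside 18.4% and 15.2% of all genes. The medians over all genes were -0.03 and -0.09. With centred arrays 4 were lower in each comparison. Without F66 replicate 2 the number lower in F66 was 3, and the methods' t-test called 2. Ugt8a, the enzyme that makes the myelin lipid galactosylceramide, was at 5.38, 5.22 and 5.30 in wt and 4.91, 4.89 and 4.82 in F66 muscle, a difference of -0.43 (adjusted p = 0.000168). It was at 5.15, 5.20 and 5.04 in Dysf-/- and 4.79, 4.80 and 4.75 in F66;Dysf-/- muscle (-0.35, adjusted p = 0.000303), and the groups did not overlap in either background. All Ugt8a values except that of wt replicate 1 lay below the median of all rows, 5.35. Without genes below that median 11 listed genes remained, and 5 were lower in each comparison. Cldn19, a claudin of Schwann cell tight junctions, was lower in both (-0.35, adjusted p = 0.0113, and -0.58, adjusted p = 6.44e-05). Ncmap, a protein of noncompact myelin, was lower in F66 (-0.49, adjusted p = 0.00042), and Fa2h, which hydroxylates the fatty acids of myelin lipids, was lower in F66;Dysf-/- (-0.61, adjusted p = 0.000317). Gldn, gliomedin, which Schwann cells deposit at nodes of Ranvier, went the other way. It was at 5.74, 5.69 and 5.61 in wt and 7.22, 6.60 and 6.46 in F66 muscle (1.08, adjusted p = 0.000348), and at 5.54, 5.66 and 5.49 in Dysf-/- and 6.39, 6.45 and 6.89 in F66;Dysf-/- muscle (1.01, adjusted p = 0.000175). In Dysf-/- against wt muscle 0 of the 12 were called, beside 0.489% of all genes, but 11 differences were negative (median -0.13, beside -0.02). ACVR2B/Fc gave 0 called in either background, beside 0.0296% and 0.0247% of all genes. The medians were -0.10 in wt and 0.05 in Dysf-/- mice. The mean log2 value over the 12 genes ran from 6.482 to 6.516 in wt, 6.335 to 6.372 in Dysf-/- and 6.290 to 6.366 in F66 muscle.

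**Figure D3:**
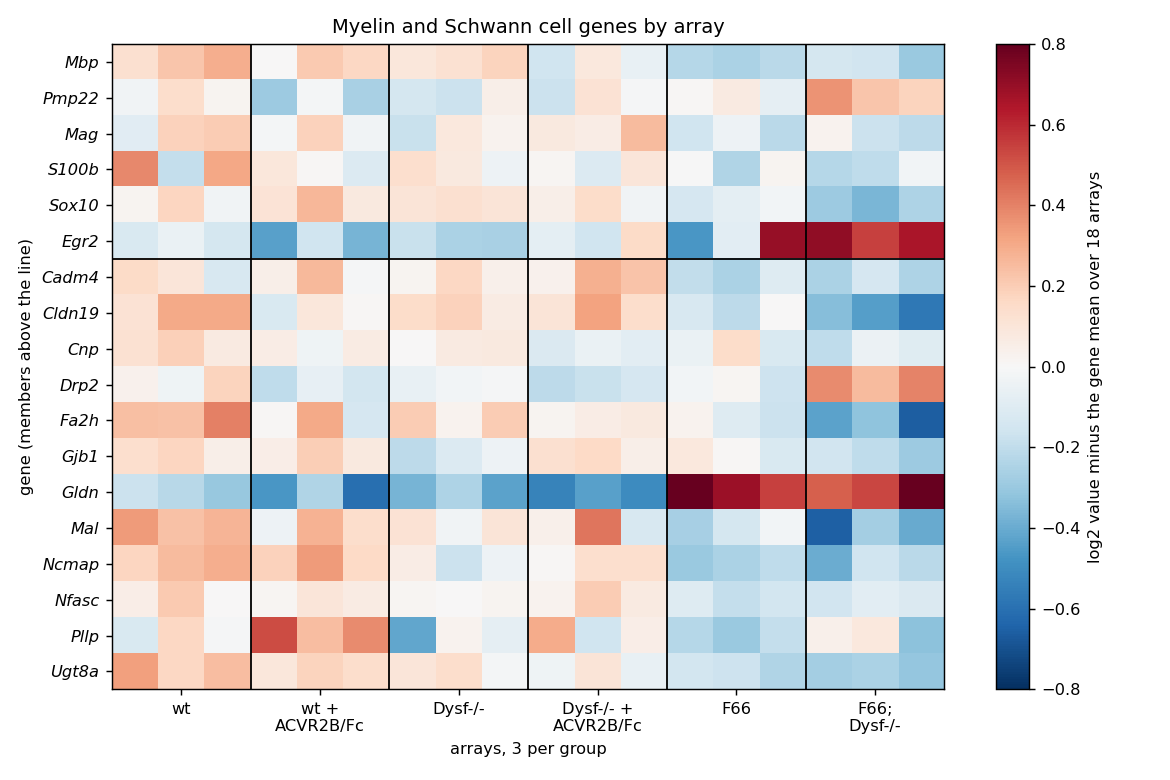
Log2 value minus the gene's own mean over the 18 arrays (colour, limited to 0.8 in either direction) for the 6 members, above the line, and the 12 other measured peripheral myelin genes, on the arrays of the 6 groups (columns, 3 per group). Mbp, Ncmap and Ugt8a are low and Gldn is high in F66 and F66;Dysf-/-, and Cldn19 is low in F66;Dysf-/-.

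Of 13 measured regulators of Schwann cell differentiation, 2 were higher and 1 lower in F66 muscle (median 0.04), beside 8.11% of all genes higher and 5.5% lower. In F66;Dysf-/- muscle 6 were higher and 3 lower (median 0.09), beside 15.2% and 18.4% of all genes; with centred arrays none was lower in either. In F66 muscle Nab2, a corepressor that binds EGR factors, was higher by 0.62 (adjusted p = 0.00166) and Adgrg6, an adhesion receptor that starts myelination, by 0.34 (adjusted p = 0.00829). Pou3f1, a transcription factor of promyelinating cells, was lower (-0.22, adjusted p = 0.017), a call that was lost without F66 replicate 1. All Adgrg6 values in groups without the transgene lay below the median of all rows, 5.35. Without genes below that median 1 regulator was higher in F66 muscle. In F66;Dysf-/- muscle Erbb3, a part of the neuregulin receptor, was at 7.08, 6.90 and 7.03, against 6.37, 6.63 and 6.46 in Dysf-/- muscle (0.51, adjusted p = 0.000237). Its partner Erbb2 was higher by 0.56 (adjusted p = 8.92e-06), Nab2 by 0.82 (adjusted p = 4.23e-05) and Zeb2, a repressor needed for differentiation and also expressed in macrophages, by 1.05 (adjusted p = 9.39e-08). Zeb2 was at 8.34, 8.29 and 8.29 in F66;Dysf-/- muscle, above the 6.81 to 7.34 of all other arrays.

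Genes of non-myelinating and repair Schwann cells had 12 of 12 measured. In F66 muscle 3 were lower and 0 higher in limma (median -0.20), beside 5.5% and 8.11% of all genes. The count lower was 0 without wt replicate 2, without F66 replicate 1 or without F66 replicate 2. In F66;Dysf-/- muscle 4 were lower and 1 higher (median -0.20), beside 18.4% and 15.2% of all genes, and 2 were lower without Dysf replicate 2 or without Dysf replicate 3. Scn7a, a sodium channel of non-myelinating Schwann cells, was the one that rose (1.02, adjusted p = 6.14e-06), and Cdh19, a cadherin of the lineage, fell (-0.59, adjusted p = 0.000134). All Cdh19 values lay below the median of all rows, 5.35. Without genes below that median 2 genes of this list were lower in F66;Dysf-/- muscle. Of 8 axonal genes, 1 was higher and 1 lower in F66 muscle, and 1 was higher and 2 lower in F66;Dysf-/- muscle, counts near the same shares. Stmn2, a microtubule regulator of growing axons, was lower in both (-0.30, adjusted p = 0.0173, and -0.42, adjusted p = 0.000671), and its F66 call was lost without wt replicate 1, F66 replicate 2 or F66 replicate 3. Uchl1, an abundant neuronal ubiquitin hydrolase, was higher in both (0.42, adjusted p = 0.00206, and 0.49, adjusted p = 0.000168).

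Muscles are heavier in mice with the Fst transgene, and lists of fibre genes and of other cell types were read beside the myelin genes. Fibre size and cell numbers were not measured on the arrays. Among all genes 8.11% were called higher and 5.5% lower in F66, and 15.2% higher and 18.4% lower in F66;Dysf-/- muscle. Muscle fibre genes themselves had 1 of 10 higher and 0 lower in F66 muscle (median 0.03), and 1 higher and 6 lower in F66;Dysf-/- muscle (median -0.15), of which 1 was lower with centred arrays. Endothelial markers were lower for 8 of 10 in F66 (median -0.34) and 7 of 10 in F66;Dysf-/- muscle (median -0.28), with none higher. The F66 count was 5 without wt replicate 1, wt replicate 3 or F66 replicate 2, and 4 with centred arrays. Kdr, the main VEGF receptor of endothelium, had the smallest p in F66 (-1.01, adjusted p = 2.07e-05). Pericyte and smooth muscle markers were lower for 6 of 8 in F66 (median -0.32), and 4 were lower and 3 higher in F66;Dysf-/- muscle (median -0.12). Adipocyte markers were lower for 4 of 5 (median -0.55) and 3 of 5 (median -0.60), and the F66 count was 2 without wt replicate 1, wt replicate 2, F66 replicate 1 or F66 replicate 3.

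Other cell types went up, beside 8.11% of all genes called higher in F66 and 15.2% in F66;Dysf-/- muscle. Fibroblast markers were higher for 7 of 8 in F66 (median 0.68) and 6 of 8 in F66;Dysf-/- muscle (median 0.93), with none lower. Macrophage markers were higher for 6 of 6 in both, with medians of 1.24 and 2.43. The mean log2 value over the macrophage markers ran from 6.22 to 6.30 in wt, from 7.36 to 7.57 in F66, from 6.92 to 7.23 in Dysf-/- and from 9.29 to 9.46 in F66;Dysf-/- muscle. Among the lists of cells other than fibres, the sheath genes, endothelium, pericytes and fat were lower on balance in F66 muscle. Fibroblast and macrophage markers were higher. Pmp22 and Egr2 were called higher in F66;Dysf-/- muscle and not in F66 muscle. Their interaction was not called (limma, adjusted p = 0.055 for Pmp22 and 0.0907 for Egr2). The fibroblast and macrophage lists were higher in both comparisons, with the larger medians in F66;Dysf-/- muscle. In limma's interaction test 6 of 6 macrophage markers were called higher (median 0.96), but only 1 of 8 fibroblast markers (median 0.10), beside 8.54% of all genes. A larger rise of the fibroblast list in the Dysf-/- background was therefore not shown. Of 9 immediate early genes, the class to which Egr2 also belongs, 4 were higher in F66 (median 0.59; 7 with centred arrays and 0 by the methods' t-test) and 3 higher and 1 lower in F66;Dysf-/- muscle (median 0.32). Among them Egr1 was higher in both (1.25, adjusted p = 0.000186, and 0.82, adjusted p = 0.00213). The part of fibre size, of infiltrating cells and of immediate early induction in the members' differences was not tested.

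**Figure D4:**
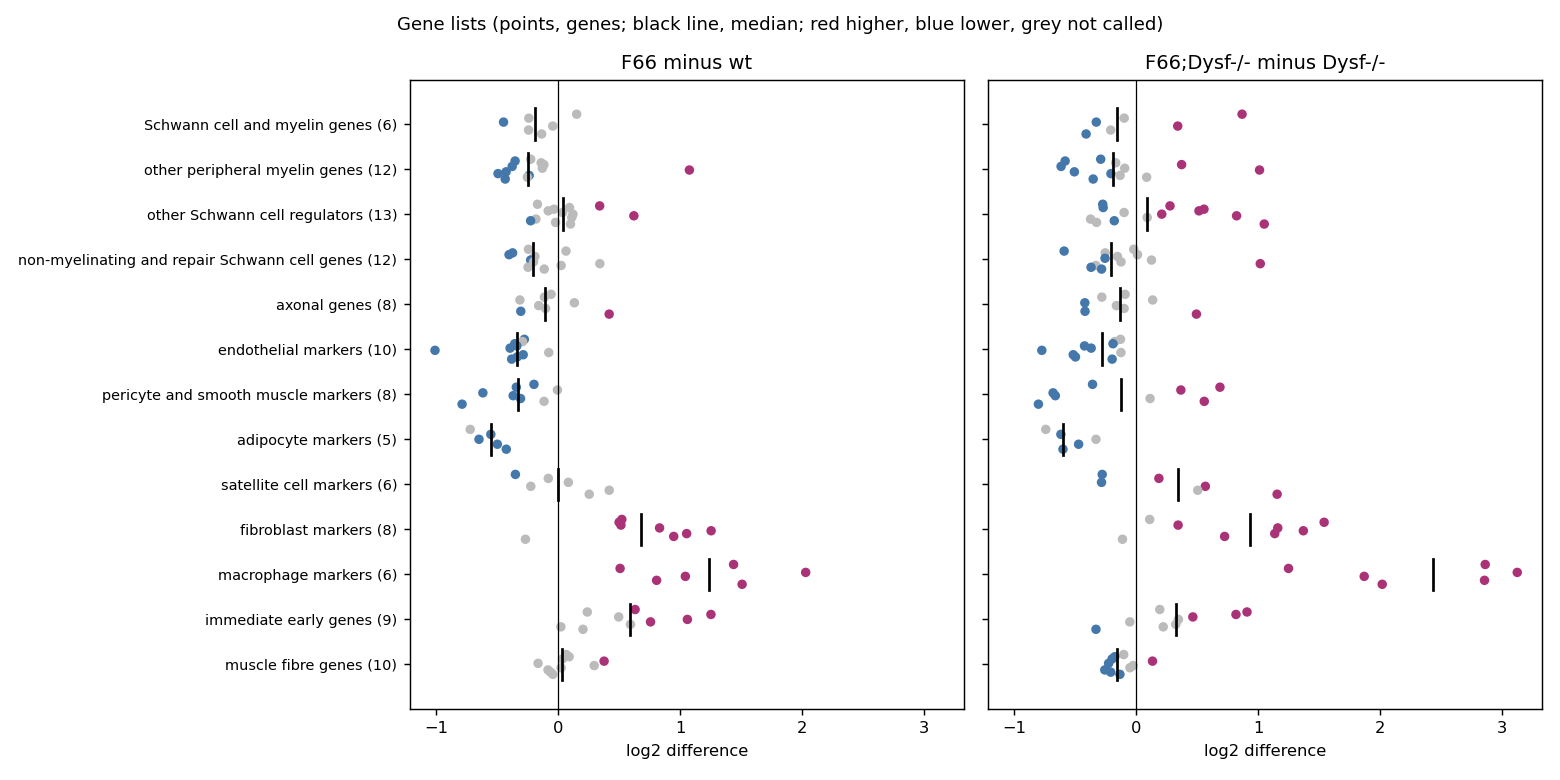
Log2 differences (horizontal axes) for each gene (points) of 13 lists (rows, number of measured genes in brackets) in F66 against wt and in F66;Dysf-/- against Dysf-/- muscle, with a black line at each list's median. Red points were called higher and blue points lower. The sheath genes lie mostly to the left with Gldn far to the right, and all macrophage markers lie to the right.

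The counts of the remaining lists stand beside 8.11% of all genes called higher and 5.5% lower in F66, and 15.2% higher and 18.4% lower in F66;Dysf-/- muscle. Oligodendrocyte markers, which share several myelin genes' roles in the central nervous system, had 0 of 4 called in F66 and 1 of 4 lower in F66;Dysf-/- muscle (medians -0.09 and -0.14). Melanocyte markers, another Sox10 lineage, had 1 of 5 and 2 of 5 lower (medians -0.17 and -0.14). The mean log2 values of both lists lay below the median of all rows, 5.35, in every group. Both counts in F66;Dysf-/- muscle fell to 0 with the methods' t-test, quantile normalization again or centred arrays. The melanocyte call in F66 was lost with the methods' t-test and without F66 replicate 2. Sterol and lipid synthesis genes, which supply myelin membrane, had 0 of 9 called in F66 (median 0.01), and 1 higher and 2 lower in F66;Dysf-/- muscle. Perineurial genes had 1 higher and 1 lower of 3 in F66, and 1 higher and 2 lower in F66;Dysf-/- muscle. Satellite cell markers had 1 of 6 lower in F66, and 3 higher and 2 lower in F66;Dysf-/- muscle. T cell markers had 0 of 6 called in F66 (median -0.15, all 6 negative), and 1 higher and 1 lower in F66;Dysf-/- muscle (median -0.0016). The mean over the T cell markers also lay below the median of all rows in every group. Tendon cell markers had 1 of 4 lower and then 2 of 4 higher.

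The genes whose pattern over the 18 arrays was most like each member were taken by Pearson's r over all genes tested. For Mbp they were Sgk1 (0.899), Foxp2 (0.898) and Rgs5 (0.896), the last a pericyte marker. For Sox10 they were Mfsd4b5 (0.928), Fam178b (0.923) and Cpm (0.911), and for Egr2 Rap2b (0.895), Plod3 (0.890) and Nagpa (0.876). For Pmp22 they were Parva (0.889), Nuak2 (0.884) and Arpc5 (0.882), for Mag Cd163l1 (0.844), Npvf (0.839) and Ern2 (0.828), and for S100b Mrps9 (0.787), Ifna4 (0.770) and Ncapd3 (0.762). The mean of the 6 members was matched less closely, by Dgcr2 (0.761) first and Zfp524 (0.684) in the tenth place. None of these genes is on the lists of peripheral myelin genes or Schwann cell regulators.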

How the data were processed

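Values were the log2 intensities deposited by the authors for Affymetrix Mouse Exon 1.0 ST arrays, normalized by RMA in Partek and tied to mm9, with versions not given in the sources used here. Of 115830 rows, 25539 had 1 gene symbol, 2300 had several and 87991 were not listed in the annotation; where a gene had several rows the one with the highest mean was kept, which left 20259 genes. The members and all gene lists were chosen with earlier results of these data known. Differences were tested with limma 3.58.1 (R 4.3.3) on 6 group means from all 18 arrays (12 residual degrees of freedom) with Benjamini-Hochberg adjustment over all genes and a threshold of 0.05, and with Python 3.11.15 for the rest. The design had no block or batch term. The number of arrays limits the precision. On simulated data for F66 against wt over 20259 genes, 200 of them changed, 73% of changes of 0.5 and 92% of changes of 1 (log2) were recovered. The members' differences in F66 against wt were all smaller than 0.5, so these shares do not apply to them. Alternatives were the compared groups alone, the methods' t-test, a block for the replicate number, testing all rows, the mean of rows, no genes below the median, quantile normalization again, centred arrays, a trended robust fit, and leaving out each array. Named were all members, from each list at most the 4 genes with the smallest p in the F66 against wt and F66;Dysf-/- against Dysf-/- comparisons, and the closest genes by correlation, with predicted genes and clones left out. Promoter windows were from RefSeq (GRCm38.p6).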

Additional observations from a re-analysis of the deposited data

Results flagged for a closer look

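Egr2 values lay on opposite sides of the uninjected mice after ACVR2B/Fc in the 2 backgrounds: all 3 injected wt arrays lay below all 3 wt arrays, and all 3 injected Dysf-/- arrays lay above all 3 Dysf-/- arrays. The difference of the 2 effects was 0.4188 on the log2 scale (SE 0.27), and limma's interaction test gave an adjusted p of 0.726, so it did not pass the threshold. That SE also draws on the wide spread of Egr2 in F66 muscle, a group outside this comparison. Such complete separation was seen for 5.93% of all genes below in wt mice and for 14.2% above in Dysf-/- mice. These shares are for each background singly, and the share of genes with both was not counted. The pattern was the only one found when each member was searched for opposite separation in several pairs of comparisons.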

How the results depend on the processing

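Of 13 called differences of single members, none reversed under the alternatives; 158 of 195 alternative values kept the call and 37 lost it. Mbp in both transgene comparisons and Sox10 and Egr2 in F66;Dysf-/- against Dysf-/- kept their calls under all 15 alternatives each, with highest adjusted p of 0.0354, 0.0477, 0.0092 and 0.019. The count of called members in F66 against wt (1) ranged from 1 to 2 when 1 array was left out. In F66;Dysf-/- against F66 (3) it was 1 with the methods' t-test, 0 with all rows and 1 whichever array was left out. In F66 against ACVR2B/Fc-injected wt (2) it was 1 with the compared groups alone, 0 with the methods' t-test, 0 with all rows and 1 to 2 with 1 array left out. In F66;Dysf-/- against ACVR2B/Fc-injected Dysf-/- (3) it was 1 with all rows, and in the F test (4) it was 2 with all rows. The interaction of the transgene with genotype (0) gave 1 called member with the compared groups alone, 2 without genes below the median, 1 with centred arrays, 2 with the trended robust fit and 0 to 1 with 1 array left out. The all-rows setting adjusts over more tests. For the other changes the cause was not tested.

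The labels do not say that the replicate number marks a shared animal or batch, and it did not meet the bar of a correlation over 0.1 in every pair, so the numbers were not treated as pairs: 7 of 45 same-numbered pairs had correlated deviations over 0.1 (range -0.075 to 0.293), 6 of them among replicates 1 and 2 of wt, injected wt and injected Dysf-/- mice, and 11 of 18 arrays correlated best with their own number, a hint that some numbers mark shared deviations. With the replicate block the interaction gave 2 called members (Pmp22, adjusted p = 0.0497, and Sox10, 0.0493), and no other count of called members moved by over 1.5 times; adipocyte markers lower in F66;Dysf-/- against Dysf-/- went from 3 to 5. With the methods' t-test the counts of lower genes in F66 against wt fell to 4 for endothelial, 2 for pericyte and 0 for adipocyte markers and 0 for non-myelinating Schwann cell genes, that of higher fibroblast markers to 3, and no regulator was called.

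Directions turned only for differences that were not called. Pmp22 in F66 against wt was 0.0206 with centred arrays and -0.0787 to 0.0067 with 1 array left out (highest without wt replicate 2), and Egr2 -0.1700 to 0.4102 (lowest without F66 replicate 3). Mag in F66;Dysf-/- against F66 was -0.0545 to 0.0678 (below 0 without F66 replicate 3 or F66;Dysf-/- replicate 1). S100b in injected against uninjected Dysf-/- mice was -0.1032 to 0.0013 (highest without injected replicate 2). In F66 against ACVR2B/Fc-injected wt muscle it was 0.0078 with quantile normalization again, 0.0083 with centred arrays and -0.1249 to 0.0111 with 1 array left out (highest without F66 replicate 2). Its interaction for the transgene was -0.0764 to 0.2095, below 0 without wt replicate 1, wt replicate 3, Dysf-/- replicate 3, F66 replicate 2 or F66;Dysf-/- replicate 3.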
